A study of Mus musculus with 18 samples.

Results

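Strains 2, 16, 21 and 23 are 4 of the 18 AKXD recombinant inbred strains whose mammary tumours were sequenced for small RNA. They were chosen by measured levels in these same libraries: the highest sums of a group of testis-linked miRNAs of the X chromosome (miR-463, miR-465, miR-470, miR-471, miR-741, miR-742, miR-743, miR-871, miR-878, miR-880, miR-881 and miR-883), together with high miR-203 and miR-205. The other 14 strains are 3, 7, 9, 10, 11, 13, 14, 18, 20, 22, 24, 25, 27 and 28. All 18 groups are F1 mice from an AKXD strain, which derives from AKR/J and DBA/2J mice, and the FVB/N-TgN(MMTV-PyVT)634Mul line. They share a transgene in which the mouse mammary tumour virus promoter drives the polyoma virus middle T oncogene, which gives rise to mammary tumours. No agent is named in the labels, and none of the sources used here gives an age. Each strain is 1 pool and 1 library, so every strain has n = 1, and how many tumours went into a pool is not known. Because measured values chose the 4 strains and no strain is replicated, differences between them and the other 14 are described without a test.

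The libraries of strains 2, 16, 21 and 23 held 11997053, 7751989, 6792622 and 12428256 miRNA reads, against 4358246 to 14949673 in the other 14. Levels are given as CPM, the usual depth-normalised read count, after scaling each library by its total and by a trimmed mean of M values (TMM) factor, and differences as log2(CPM + 1), the 4 pools minus the other 14, which understates changes of low miRNAs. Strains 10, 13, 14 and 20 had the lowest scaling factors (0.671 to 0.776) and strain 28 the highest (1.67), so these libraries stand apart from the rest. Strain 28 also had 274 CPM of miR-21, against 52897 CPM or more in each of the 17 others, and 8643 CPM of let-7c, against 112178 CPM or more. None of them is among the 4 pools. Over the 281 miRNAs whose mean reached 10 CPM, the median difference was -0.05 log2, with 157 lower in the 4 pools and the others higher. With libraries scaled by total counts alone it was 0.06 log2, with 121 of 282 lower. In bulk tissue, fewer cells of a type and less RNA per cell cannot be told apart.

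A miRNA guides silencing proteins to messenger RNAs that pair with its seed, the bases near its 5′ end. The X-linked miRNAs of this group lie side by side in a fast-evolving cluster that in mice is best known from the male germ line. miR-203 and miR-205 are miRNAs of stratified and basal epithelium; miR-203 restrains the progenitor factor p63 in skin, and miR-205 marks basal cells of the mammary gland. The miR-200 family maintains the epithelial state by repressing Zeb1 and Zeb2.

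The sequences of the testis-linked miRNAs with the most reads are shown first, since they tell which of these rows can be separated from each other. They are those of RefSeq (GRCm38.p6), from 5′ to 3′, with the seed (bases 2 to 8) in capitals, and all 19 deposited rows of the group matched by name. Where the deposited name gives no arm, both arms of the hairpin are printed.
miR-878-5p: uAUCUAGUuggaugucaagaca
miR-878-3p: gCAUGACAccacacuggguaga
miR-880-5p: uACUCAGAuugauaugaguca
miR-880-3p: uACUCCAUccucucugaguaga
miR-741-5p: uACGUAGAuugguaccuaucaug
miR-741-3p: uGAGAGAUgccauucuauguaga
miR-470-5p: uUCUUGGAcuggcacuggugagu
miR-470-3p: aACCAGUAccuuucugagaaga
miR-881-5p: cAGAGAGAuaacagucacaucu
miR-881-3p: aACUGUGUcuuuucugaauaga

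The arms that share a seed with another arm of the group are the following, and of these the miR-465 3p arms have the same whole sequence.
miR-743a-3p: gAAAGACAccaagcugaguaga
miR-743b-3p: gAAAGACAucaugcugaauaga
miR-743a-5p: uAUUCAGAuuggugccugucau
miR-871-5p: uAUUCAGAuuagugccagucaug
miR-465a-3p: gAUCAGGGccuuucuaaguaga
miR-465b-3p: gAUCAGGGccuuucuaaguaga
miR-465c-3p: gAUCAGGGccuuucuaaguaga
miR-465a-5p: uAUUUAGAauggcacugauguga
miR-465b-5p: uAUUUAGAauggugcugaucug
miR-465c-5p: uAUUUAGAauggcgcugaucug

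The rows of miR-465a-3p, miR-465b-3p and miR-465c-3p held identical values in every library and were counted once, which left 17 distinct rows. Reads of the miR-465 5p arms, which differ at few bases, may be shared between copies, so their split is uncertain. The 19 annotated hairpins of the group lie on the minus strand of chromosome X between 66776757 and 66839125 (GRCm38), within 62369 bases. In GENCODE the only gene there besides miRNA genes is the processed pseudogene Gm14681, and the nearest protein-coding gene below is Slitrk2. miR-742 was not analysed here.

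Every distinct row of the testis-linked group had a higher mean level in strains 2, 16, 21 and 23 than in the other 14, under each of 3 scalings. The summed level was 36.2 CPM in strain 2 (exact Poisson 95% interval 32.9 to 39.6), 22.2 CPM in strain 16 (19.3 to 25.4), 8.85 CPM in strain 21 (6.88 to 11.2) and 35.2 CPM in strain 23 (31.8 to 38.9). In the other 14 the lowest value was 0.244 CPM (strain 7), the median 1.02 CPM and the highest 2.18 CPM (strain 9). These intervals cover counting error only, because copies made by PCR are not told apart. The levels are low throughout: the 4 pools held 1117 reads of the group, of which 68 came from strain 21 and 455 from strain 2, and the other 14 held 172 reads in all, from 1 read in strain 7 to 29 in strain 9. The 4 pools thus had 86.7% of the group's reads and 20.5% of the library reads.

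Strain 21 lies just inside the choice and strain 9 just outside it. The summed level of strain 21 was 4.06 times that of strain 9, and that of strain 2 was 4.09 times that of strain 21. Strains 2 and 23 have overlapping counting intervals, strain 16 lies below both, and strain 21 below strain 16. Among the 14 others the intervals of neighbours in the order overlap.

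**Figure D1:**
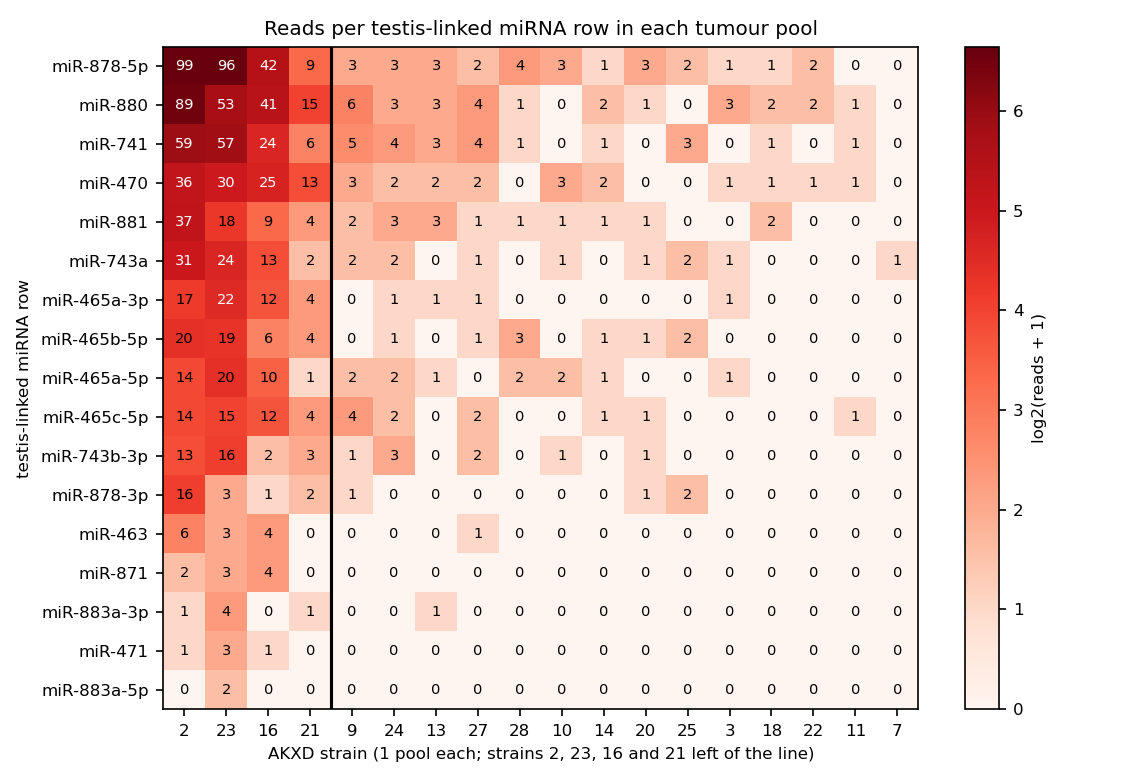
Reads of the 17 distinct testis-linked rows (down) in each of the 18 tumour pools (across), coloured by log2(reads + 1), with strains 2, 23, 16 and 21 left of the line. The top row, miR-878-5p, has 99, 96, 42 and 9 reads in these pools, and no testis-linked row has more than 6 reads in any other pool.

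miR-878-5p and miR-880 had the most reads. miR-878-5p had 99, 42, 9 and 96 reads in strains 2, 16, 21 and 23, against at most 4 reads in any of the other 14, of which 12 had at least 1. miR-880 had 89, 41, 15 and 53 reads in the same 4 pools, against at most 6 in the others (strain 9). In CPM the 4 pools lay above all 14 others in both rows: miR-878-5p was at 7.88, 4.53, 1.17 and 8.73 CPM, against a highest value of 0.431 CPM in strain 28, and miR-880 at 7.05, 4.41, 1.95 and 4.81 CPM, against at most 0.4497 CPM in strain 9.

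miR-741, miR-470, miR-743a and miR-881 followed. miR-741 had 59, 24, 6 and 57 reads in strains 2, 16, 21 and 23 and at most 5 in the others. miR-470 had 36, 25, 13 and 30 reads in these pools and at most 3 in the others. For both the 4 pools were clear of the rest. miR-743a had 31, 13, 2 and 24 reads, and its level in strain 21 (0.26 CPM) was close to the 0.244 CPM that 1 read makes in strain 7; with libraries scaled by a median of ratios the groups overlapped. miR-881 had 37, 9, 4 and 18 reads, against at most 3 in the others.

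The miR-465 rows and miR-743b-3p were lower. miR-465a-3p, the sequence common to 3 copies, had 17, 12, 4 and 22 reads in strains 2, 16, 21 and 23, against at most 1 in any other pool. The 5p arms had 14, 10, 1 and 20 reads (miR-465a-5p), 20, 6, 4 and 19 reads (miR-465b-5p) and 14, 12, 4 and 15 reads (miR-465c-5p) in the same order. Only the first of the 3 overlapped with the other pools, through its 1 read in strain 21. miR-743b-3p had 13, 2, 3 and 16 reads and lay just above the others, at 0.215 CPM in strain 16 against at most 0.212 CPM in strain 24.

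In 10 of the 17 rows all 4 pools lay above all 14 others, as in 2.28% of all 571 distinct rows and 0.181% of the 551 outside the choice. In none of the 17 were they all below the others, as in 0.175% of the 571. Since these rows chose the pools, the count is given as a description. Of the remaining 7 rows, miR-465a-5p had 45 reads in the 4 pools and overlapped through strain 21, as said above, and the other 6 had 22 reads or fewer there. miR-878-3p had 16 reads in strain 2 and 1 to 3 in strains 16, 21 and 23, against at most 2 in the others. miR-463 had 6, 4, 0 and 3 reads in strains 2, 16, 21 and 23 and 1 read in strain 27. miR-871 had 2, 4, 0 and 3 reads in the 4 pools and no recovered read in the other 14. With its 9 reads taken as exact, its rate was 11.6 times that of a floor of 3 reads over the 14 libraries. This ratio pools reads over libraries, leaves out the spread between pools, and describes a row that helped choose them. miR-471 (5 reads in the 4 pools) and miR-883a-5p (2 reads, both in strain 23) also had no recovered read in the other 14. In strain 25 a single read is also written as 0, so 1 read of any of these 3 rows there would not be seen. miR-883a-3p had 6 reads in the 4 pools and 1 in the others. None of the 17 rows reached a mean of 10 CPM, the highest being 1.38 CPM, so none is among the 281 miRNAs of the later comparison. Pooled over libraries, all 17 rows together were 25.2 times as frequent in the 4 pools as in the other 14.

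The make-up of the group was described next, because the choice used the sum of the rows and not their proportions. miR-878-5p took 21.8% of the group's reads in strain 2 (exact binomial 95% interval 18.1 to 25.8), 20.4% in strain 16 (15.1 to 26.5), 13.2% in strain 21 (6.23 to 23.6) and 24.7% in strain 23 (20.5 to 29.3), against 16.3% in the other 14 pooled (11.1 to 22.7). All of these intervals overlap. miR-880 took 19.6% in strain 2, 19.9% in strain 16, 22.1% in strain 21 and 13.7% in strain 23, against 16.3% in the other 14 pooled. miR-470 took 7.91% in strain 2 (5.60 to 10.8), 12.1% in strain 16 (8.01 to 17.4), 19.1% in strain 21 (10.6 to 30.5) and 7.73% in strain 23 (5.28 to 10.9), against 10.5% in the other 14 pooled (6.32 to 16.0). Across the 17 rows the shares ranked alike between the pools. Spearman rho was 0.805 to 0.902 between any pair of the 4 pools and 0.872 to 0.921 between each of them and the other 14 pooled. These are correlations across rows, which are not independent replicates and which share their library.

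**Figure D2:**
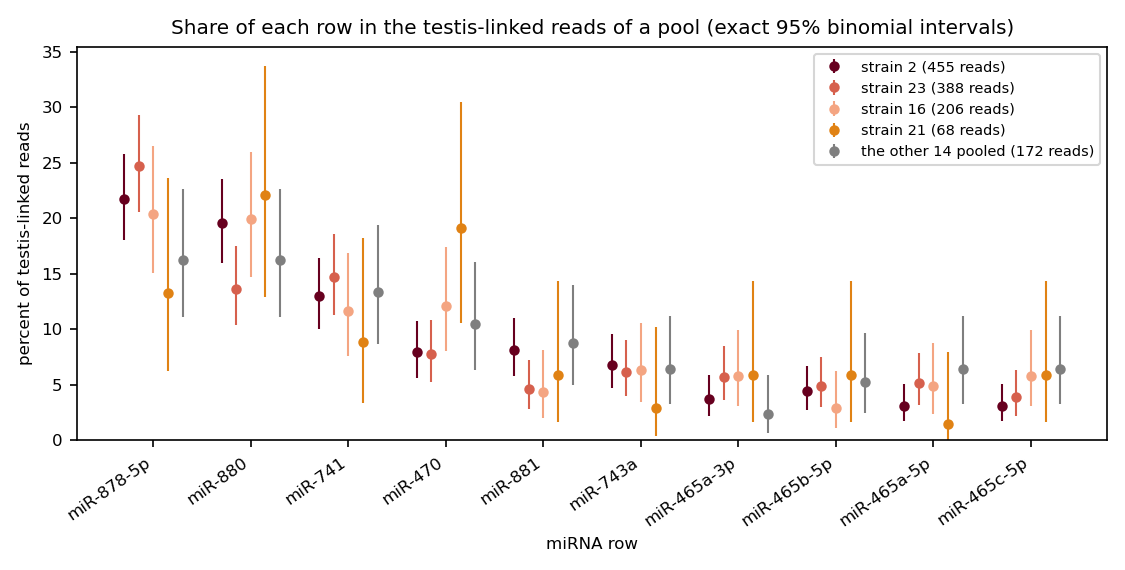
Share (percent) of each of the 10 most-read testis-linked rows in the group's reads of strains 2, 23, 16 and 21 and of the other 14 pooled, with exact 95% binomial intervals from read counting. The share of miR-470 is highest in strain 21, at 19.1%, and its interval overlaps with that of the other 14 pooled.

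miR-203 and miR-205, which also entered the choice, are shown with both arms, since the deposited names give none.
miR-203-5p: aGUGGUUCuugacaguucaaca
miR-203-3p: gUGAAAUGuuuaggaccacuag
miR-205-5p: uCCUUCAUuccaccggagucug
miR-205-3p: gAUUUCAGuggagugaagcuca

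miR-203 was at 9931, 4127, 4260 and 4376 CPM in strains 2, 16, 21 and 23, against 993 CPM (strain 22) to 3069 CPM (strain 18) in the other 14, with a median of 1829 CPM. Strain 2 stands out among the 4, which do not overlap with the others. The mean difference was 1.54 log2 and 1.23 log2 without strain 2. miR-203*, from the same hairpin, was at 21.5, 12.3, 9.62 and 10.2 CPM in the 4 pools, against a median of 5.14 CPM and a highest value of 10.0487 CPM (strain 24) in the others, so that strain 21 falls within their range. miR-205 was at 718, 917, 1072 and 841 CPM in strains 2, 16, 21 and 23, against 301.5 CPM (strain 25) to 659 CPM (strain 18) in the other 14, with a median of 485.4 CPM (difference 0.89 log2). With total counts alone strain 28 reached 898 CPM of miR-205 and overlapped with strains 2 and 23, at 753 and 746 CPM. Mir203 lies on the plus strand of chromosome 12 (112130880 to 112130955, GRCm38) outside other GENCODE genes, and Mir205 on the minus strand of chromosome 1 (193507463 to 193507530) in an exon of the lincRNA 4631405K08Rik.

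**Figure D3:**
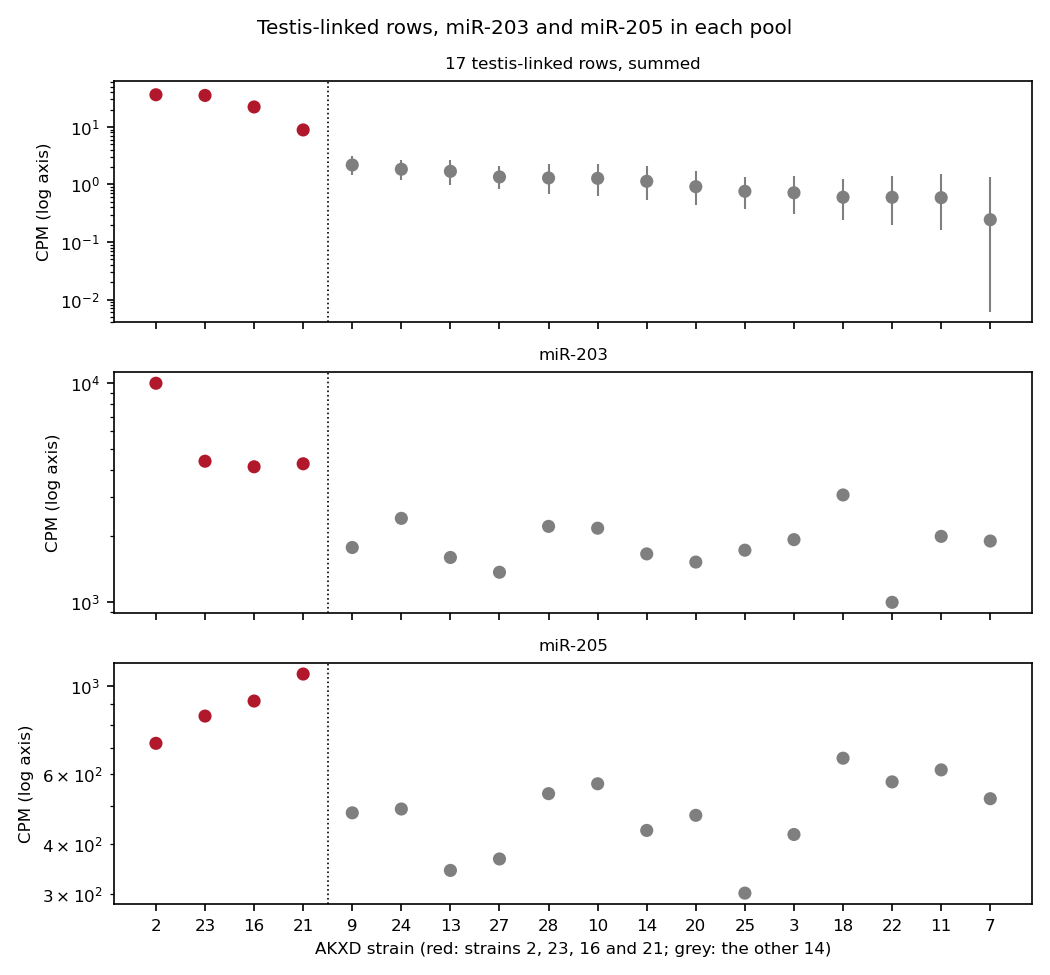
Summed testis-linked rows (with exact 95% Poisson intervals from reads), miR-203 and miR-205 in CPM on log axes, in each of the 18 pools, with strains 2, 23, 16 and 21 in red on the left and the other 14 in grey. All 3 measures are higher in each red pool than in every grey pool, and the order within the red pools differs between the panels.

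The 4 pools did not rank alike for these measures. Strain 21 was lowest of the 4 in testis-linked miRNAs and highest in miR-205 of all 18 pools, and strain 2 was highest in testis-linked miRNAs and miR-203 and lowest of the 4 in miR-205. The same measures are described over the 14 pools outside the 4, as log2(CPM + 1). These pools are what the choice left after it took the pools high in these measures, so their range is cut short, and the coefficients carry no test and do not speak for all 18 pools. For miR-203 and the testis-linked sum a Pearson r of 0.03 and a Spearman rho of -0.01 were found (n = 14 pools). For miR-205 r was -0.30 and rho -0.42, and for the sum of miR-203 and miR-205 r was -0.05 and rho -0.04. Without strains 7 and 9, whose testis-linked sum lies farthest from the median on the log2 scale, r was 0.09 for miR-203, -0.34 for miR-205 and -0.01 for their sum. Without strains 9 and 24, the farthest in CPM, r was -0.11, -0.42 and -0.21 in the same order. The pools share the scaling, and their testis-linked levels rest on 1 to 29 reads each. No batch is given in the labels.

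**Figure D4:**
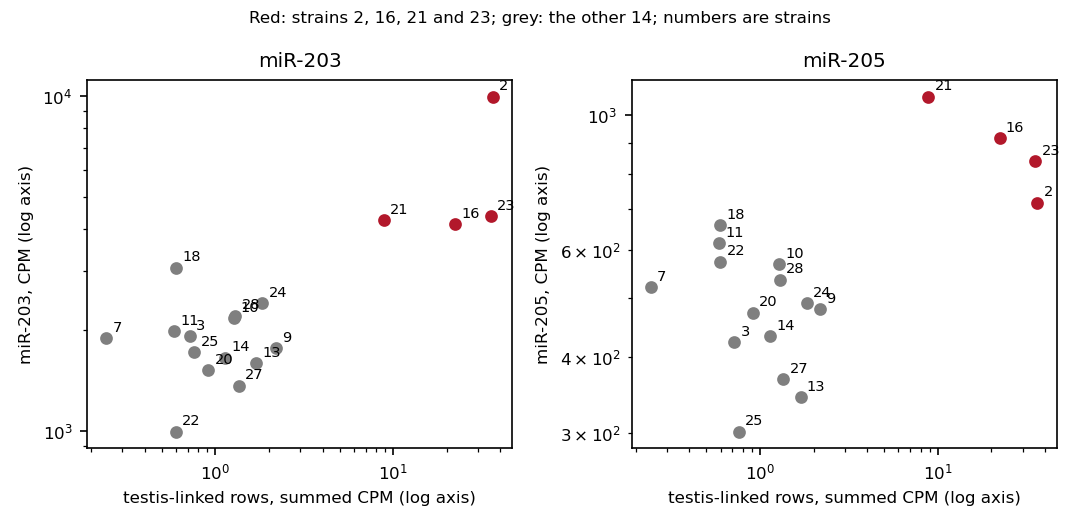
miR-203 (left) and miR-205 (right) in CPM against the summed testis-linked CPM, each point 1 pool marked with its strain number, on log axes. The 4 red pools, chosen by these measures, lie to the upper right of the 14 grey ones, whose testis-linked sums stay at 2.18 CPM or less.

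Few miRNAs outside those that made the choice separated the 4 pools from the others. Among the 281 miRNAs whose mean reached 10 CPM, the 4 pools lay above all 14 others in 3 (1.07%), which were miR-203, miR-205 and miR-709, and below them all in 1 (0.356%), miR-200b. Of the 279 outside the choice this is 1 above (0.358%) and 1 below (0.358%). miR-709, which has been studied in male germ cells of the mouse, was at 15.9, 61.4, 65.2 and 13.2 CPM in strains 2, 16, 21 and 23, against 1.48 CPM (strain 27) to 10.04 CPM (strain 28) in the other 14, with a median of 2.94 CPM. Its difference was 2.83 log2, the largest of the 281. It averaged 38.9 CPM in the 4 pools and 3.98 CPM in the other 14. It thus reached a mean of 10 CPM only through the 4 pools, so its place among the 281 is a description. Strains 16 and 21 were higher than strains 2 and 23, an order unlike that of the testis-linked sum. With total counts alone strain 28 reached 16.8 CPM and overlapped with strains 2 and 23. Mir709 lies on the plus strand of chromosome 8 (84086099 to 84086186) within Rfx1, outside its exons.

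miR-200b is printed with both arms because it is the only miRNA of the 281 that was lower in all 4 pools than in every other.
miR-200b-5p: cAUCUUACugggcagcauugga
miR-200b-3p: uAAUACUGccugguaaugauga

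miR-200b was at 3869, 3085, 3683 and 3783 CPM in strains 2, 16, 21 and 23, against 4083 CPM (strain 22) to 6636 CPM (strain 25) in the other 14, with a median of 4842 CPM. The difference was small (-0.47 log2), and with total counts alone the groups overlapped, since strain 14 was then at 3051 CPM. miR-429, encoded beside miR-200b, was at 3253, 1665, 3734 and 2531 CPM in the 4 pools, against a median of 4220 CPM in the others (2428 to 5390 CPM; difference -0.60 log2). miR-200c and miR-141 differed by -0.36 and -0.41 log2, and miR-200a by -0.19. Of the 8 tested rows of the miR-200 family 7 were lower and 1 higher, miR-200a*, with a median of -0.27 log2 against -0.05 over all 281. With total counts alone 6 were lower. Mir200b lies on the minus strand of chromosome 4 (156055681 to 156055750) within Ttll10 and Gm13648, outside their exons.

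**Figure D5:**
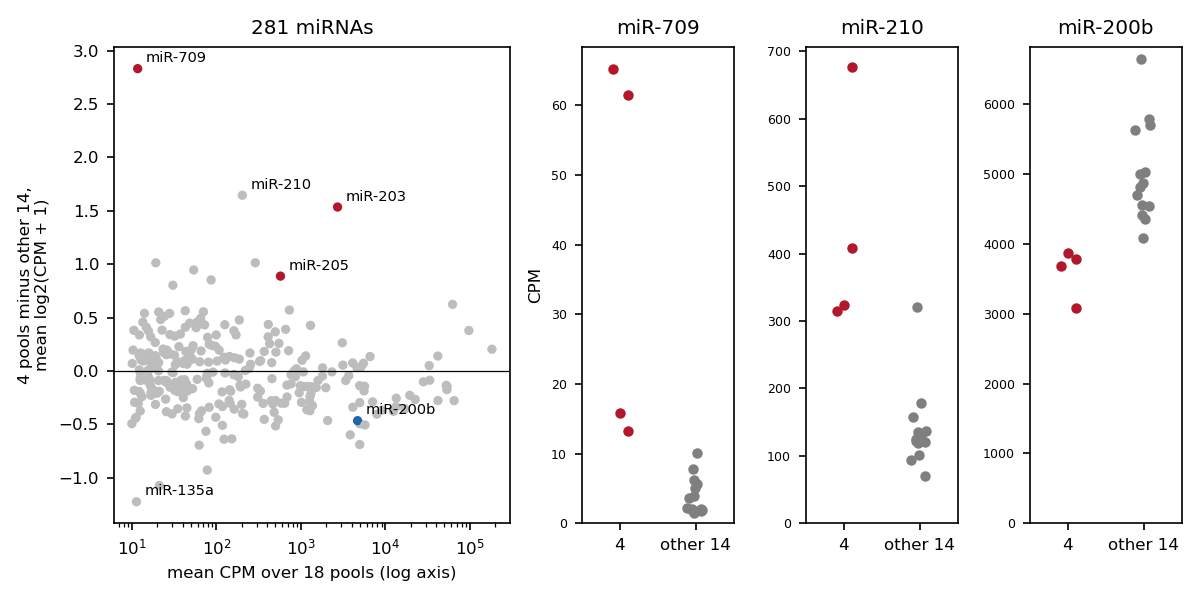
Left, difference of mean log2(CPM + 1) between strains 2, 16, 21 and 23 and the other 14 against mean CPM (log axis) for 281 miRNAs, with those above (red) or below (blue) in all 4 pools coloured. Right, CPM of miR-709, miR-210 and miR-200b in each of the 4 pools (red) and the other 14 (grey). The groups are apart for miR-709 and miR-200b and overlap for miR-210, where strain 25 reaches 321 CPM and strain 21 is at 314 CPM.

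Of the 281 miRNAs, 5 (1.78%) were at least 1 log2 higher in the 4 pools, namely miR-709, miR-210, miR-203, miR-133a and miR-204, and 2 (0.712%) at least 1 log2 lower, miR-135a and miR-466d-3p. miR-210, which is induced by hypoxia, was at 324, 676, 314 and 408.8 CPM in strains 2, 16, 21 and 23, against 69.5 to 321 CPM in the other 14, with a median of 126.03 CPM (difference 1.65 log2). Strain 25 was the only other pool in the range of the 4, and leaving out strain 25 or strain 21 gave groups that do not overlap. miR-133a, a muscle miRNA, was at 206.2, 648, 406 and 306 CPM, within the 23.3 to 714 CPM of the others, whose median was 204.5 CPM. Its difference was 1.01 log2, and its mean was 392 CPM in the 4 pools and 260 CPM in the others. miR-204 was high in strains 21 and 23 only, at 81.9 and 62.0 CPM, and at 6.44 and 6.87 CPM in strains 2 and 16, against 2.62 to 35.7 CPM in the others. miR-149 was at 64.8, 105, 104 and 58.7 CPM in the 4 pools, against a median of 50.5 CPM in the others (7.78 to 65.5 CPM; difference 0.95 log2). miR-135a was at 2.14, 4.41, 3.91 and 7.19 CPM, against a median of 10.1 CPM in the others (3.57 to 28.4 CPM; difference -1.23 log2). miR-466d-3p, of the Sfmbt2 cluster, was at 15.5, 6.24, 6.13 and 16.5 CPM, against a median of 23.2 CPM (difference -1.08 log2).

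The 279 miRNAs outside the choice were compared with the testis-linked sum by rank over all 18 pools. Most like it were miR-221 (Spearman rho 0.65), miR-210 (0.59), miR-25 (0.57), miR-423-3p (0.52) and miR-138 (0.46). Most unlike it were miR-672 (-0.58), miR-375 (-0.52), miR-30b* (-0.49), miR-30c-1* (-0.44) and miR-676* (-0.42). For miR-203 and miR-205, which entered the choice and were left out of this order, rho was 0.52 and 0.31. These are descriptions over n = 18 pools that share the scaling and are not tests. miR-221 was at 82.0, 110, 68.4 and 114 CPM in strains 2, 16, 21 and 23, against a median of 64.8 CPM in the others (41.2 to 90.9 CPM), so that its groups overlap. miR-672, an X-linked miRNA outside the cluster, was at 45.8, 55.8, 38.2 and 49.4 CPM in the 4 pools, against a median of 58.0 CPM (26.7 to 144.5 CPM).

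None of the 6 rows of the list of autosomal meiotic germ cell miRNAs, which does not hold miR-709, lay above the other 14 in all 4 pools. Such rows made up 0.181% of the 551 outside the choice, so a list of 6 would seldom hold any. Of the 6 only miR-34c reached a mean of 10 CPM. miR-34c, an abundant miRNA of meiotic germ cells that is also induced by p53, was at 500.7, 367, 579 and 2394 CPM in strains 2, 16, 21 and 23, against 355 to 1257 CPM in the other 14, with a median of 591 CPM. It was the highest of all 18 pools in strain 23 and below the median of the others in strains 2, 16 and 21. miR-34b-3p, from the same transcript, was at 1.12, 1.29, 1.43 and 4.36 CPM, against at most 1.78 CPM in the others, and miR-34c* at 0.79, 0.97, 0.65 and 3.00 CPM, against at most 1.78 CPM, so that strain 23 led in both. miR-34b-5p, at 3.03, 3.44, 5.49 and 4.19 CPM in the 4 pools, was within 1.16 to 5.38 CPM in the others except in strain 21. miR-449a, which shares its family with miR-34, was at 0.636, 0.647, 0.260 and 0.545 CPM, against 0 to 0.642 CPM, so that strain 16 alone lay above the others. miR-202-5p, of the gonads, had reads in 1 of the 4 pools (strain 23, 0.09 CPM). Of 7 tested X-linked miRNAs outside the cluster, 4 were higher and 3 lower, with a median of 0.00 log2 (-0.02 with median of ratios). The most abundant of them, miR-652, was at 254, 177, 263 and 192.05 CPM, against a median of 216.2 CPM in the others. The miR-290 and miR-302 groups of embryonic cells were at 0.318, 1.18, 0.130 and 0.272 CPM in sum, against 0 to 0.598 CPM, with strain 16 highest of all pools.

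The marker lists of other tissues were compared in the same way. The basal epithelium list is set aside here, because its miR-203 and miR-205 entered the choice of the pools. None of the remaining lists held a miRNA that was higher in all 4 pools than in every other. Outside the choice this was so for 1 of 279 miRNAs (0.358%), so short lists would seldom hold any. All 5 tested skeletal muscle miRNAs had a higher mean log2(CPM + 1) in the 4 pools (median difference 0.38 log2). The direction depends on the scale. In mean CPM, miR-1 (93623 against 98327) and miR-206 (2659 against 3276) were lower in the 4 pools, and miR-133a (392 against 260) was higher. The summed level of the list was 80068, 91350, 113998 and 101506 CPM in strains 2, 16, 21 and 23. It lay within the 22465 to 303079 CPM of the others, ranking 10th, 9th, 7th and 8th of 18. All 4 tested Hox cluster miRNAs were lower (median -0.58 log2), of which miR-10a was at 3415, 1219, 6825 and 2620 CPM, against 2807 to 16113 CPM in the others. Strain 16 had the lowest sum of the Hox list of all pools and strain 21 ranked 3rd highest. Of the leukocyte list 4 of 5 were lower (median -0.43 log2), with a sum of 5255, 3151, 3568 and 2333 CPM, against a median of 4807 CPM (1573 to 18247 CPM). miR-31 and miR-184, of skin and its appendages, were both lower in the mean (-0.33 and -0.28 log2). The rows of the same list below a mean of 10 CPM were higher: miR-224 by 0.62, miR-31* by 0.36 and miR-452 by 0.03 log2. miR-375, of the luminal list, differed by -0.31. miR-122, abundant in liver, was at 70.4, 16.3, 1.57 and 166 CPM, against a median of 58.9 CPM, with strain 21 lowest of all pools. The part of these tissues in the testis-linked and basal epithelial levels was not tested.

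The groups of the most abundant members of the remaining lists all overlap. miR-142-3p, of blood cells, was at 4763, 2898, 3342 and 2084 CPM in strains 2, 16, 21 and 23, against a median of 4501 CPM in the others (1360 to 17098 CPM), and miR-142-5p differed by -0.15 log2. miR-206, of skeletal muscle, differed by 0.05 log2, and miR-10b, of the Hox clusters, by -0.15. The erythroid list had 1 higher and 2 lower of 3 (median -0.09 log2), with miR-451 at -0.25 and miR-486 at 0.43 log2, and the endothelial list 0 higher and 2 lower of 2 (median -0.26 log2), with miR-126-3p at -0.38 and miR-126-5p at -0.15 log2. The smooth muscle list had 3 higher and 0 lower of 3 (median 0.07 log2), with miR-143 at 0.05 and miR-145 at 0.38 log2, and the mesenchymal list 1 higher and 3 lower of 4 (median -0.09 log2), with miR-199a-3p at -0.04.

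miR-9*, of neural tissue, was at 20.5, 28.3, 10.5 and 98 CPM in strains 2, 16, 21 and 23, against a median of 46.9 CPM in the others (3.17 to 207.5 CPM). The neural list had 1 higher and 2 lower of 3 (median -0.47 log2), with miR-9 at -0.47 log2, and the pancreas list 0 higher and 3 lower of 3 (median -0.36 log2), with miR-217 at -0.36 and miR-216a at -0.21. The gut and kidney list had 1 higher and 2 lower of 3 (median -0.03 log2), with miR-192 at 0.08 and miR-194 at -0.03 log2. The imprinted Dlk1-Dio3 cluster had 9 higher and 10 lower of 19 (median -0.01 log2), with miR-379 at -0.05 and miR-541 at -0.30, and the Sfmbt2 cluster 2 higher and 8 lower of 10 (median -0.23 log2), with miR-669c at -0.35 and miR-467c at -0.12. miR-148a* of the luminal list differed by -0.07 log2, X-linked miR-532-5p by 0.12, and embryonic miR-291a-3p and miR-295 by 0.12 and 0.05. With total counts alone the medians of the erythroid, mesenchymal, gut and kidney, and Dlk1-Dio3 lists turned positive, at 0.01, 0.02, 0.13 (2 members tested) and 0.09 log2, and the Dlk1-Dio3 list then had 14 higher and 5 lower.

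The 4 strains also differed among themselves. Strain 16 had the lowest sum of the miR-200, endothelial and Hox lists of all 18 pools. Strain 23 had the lowest luminal sum (37866 CPM, mostly miR-148a) and the highest germ cell sum outside the X cluster, through miR-34c. Strain 21 had the highest miR-205 and the lowest miR-122, and strain 2 the highest miR-203.

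Rows numbered miR-2132 to miR-2146 were looked at because several stood high in the 4 pools; they were chosen after their values were seen. Of the 10 rows 8 had a higher mean in the 4 pools and 2 a lower one (median 0.65 log2), and none was free of overlap. Over the 281 miRNAs whose mean reached 10 CPM, 157 were lower, with a median of -0.05 log2. The 10 rows were not held to that mean. Rows with all 4 pools above the others made up 0.181% of the 551 outside the choice, so 10 rows would seldom hold any. miR-2135 was at 28.2, 14.0, 12.5 and 6.0015 CPM in strains 2, 16, 21 and 23, against at most 7.66 CPM in the others, and miR-2145 at 22.1, 13.9, 15.6 and 9.55 CPM, against at most 11.7 CPM. In both, strain 23 alone fell within the range of the others. Their part in the level of miR-709 or of the testis-linked rows was not tested.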

How the data were processed

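Mammary tumour RNA of 18 strains was measured as 1 library each. The deposited table holds 583 rows and 18 columns of log2 values, matched to samples by their descriptions. Per the submitters' processing notes BWA and mm9 were used, with neither role nor counter named. Linearised deposited log2 values proved to be read counts multiplied by a library constant: all 3723 values of up to 50 reads were whole within 0.006 log2. In strain 25 a single read is also written as 0.

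Values were made linear, divided by the constant, and rows identical in every library counted once (571 left). Libraries were scaled by TMM (30% and 5% trimmed), and a pseudocount of 1 CPM was used. Sites and sequences came from GENCODE M21 and RefSeq (both GRCm38), by name; the authors' build is mm9. Intervals are exact. Permutation tests planned for the correlations among the other 14 pools are not reported, because the pools were chosen on the same measures. The miRNAs named are every row of the choice, germ cell rows, all others without overlap, the 5 largest differences and rank correlations each way, and the 2 most abundant of each of 21 lists. Members of the miR-200 family other than these, and the rows numbered 2132 to 2146, were named after their values were seen. Strains and lists were chosen with earlier results of these data known. The calculation was tested on simulated libraries. Python 3.11.15, numpy 2.4.6, pandas 2.3.3, scipy 1.17.1 and matplotlib 3.10.9 were used. Alternatives were other scalings, pseudocounts and filters and pools left out.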

Additional observations from a re-analysis of the deposited data

How the results depend on the processing

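The 4 highest pools by testis-linked sum were strains 2, 16, 21 and 23 under all 3 alternatives tried. The count of miRNAs above in all 4 pools was 1 in place of 3 with total counts alone (miR-203), 13 with no filter, where 10 testis-linked rows were added, and 3 to 4 when single strains were left out, miR-210 being added without strain 21 or 25. The count below was 0 in place of 1 with total counts alone. It was also 0 when total counts were combined with leaving out strains 10, 13, 14, 20 and 28, where the count above was 2 (miR-203 and miR-709). With TMM it stayed at 1 without these 5 strains and without single strains. The cause of these changes was not tested. The difference of the testis-linked sum, 3.54 log2, was 2.21 with a pseudocount of 5 CPM, which shrinks low levels by construction. Spearman rho among the 14 pools turned sign with total counts alone, to 0.27 for miR-203, 0.015 for miR-205 and 0.17 for their sum, and for the sum with median of ratios (0.0022); without single strains it ran from -0.18 to 0.11 for miR-203, -0.51 to -0.31 for miR-205 and -0.21 to 0.077 for the sum. The signs of the differences of miR-203, miR-205, miR-709, miR-210 and miR-200b held in all alternatives. For the counts and differences, leaving out single strains outside the 4 was added after the data had been seen, as was combining total counts with the pools left out. No paired analysis was possible because every strain has 1 library. Depth limits the testis-linked rows: 3 reads make 0.193 to 0.733 CPM.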
